A study of Mus musculus with 2 samples.

Results

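The 6 genes described here encode the Fras-Frem protein complex of embryonic basement membranes and the nephronectin-integrin pair tied to it: Fras1, Frem2, Frem1, Grip1, Npnt and Itga8. They were chosen by gene symbol, and all 6 were found among the 38926 features listed for each library. RNA was measured in pleuroperitoneal folds (PPFs) dissected by hand from wild-type mice at embryonic day 12.5, after the heart and lungs were taken out. The folds are paired embryonic structures that give rise to connective tissue of the diaphragm. The mice were of a mixed background, given in the labels as 129s/SvlmJ-C57/BL6J. The series holds 1 group of 2 libraries, replicates 1 and 2, each made from 2 pooled PPF pairs, so no animal is resolved within a library and there is no other stage, tissue or genotype to set against them. The series states that it was made to rank candidate genes from human studies of congenital diaphragmatic hernia, in which abdominal organs enter the chest through a gap in the diaphragm.

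Fras1, Frem1 and Frem2 are very large extracellular proteins built around repeats first described in the proteoglycan Cspg4. They stabilise each other in the basement membrane beneath embryonic epithelia, and loss of any of them in mice separates epithelium from the tissue below. Grip1 is a cytoplasmic adaptor with PDZ domains that carries Fras1 and Frem2 to the basal cell surface. The complex holds nephronectin, the product of Npnt, at the basement membrane, where integrin alpha8 beta1 on mesenchymal cells binds it. Itga8 encodes the alpha8 chain, and mice without Itga8 or Npnt often lack kidneys. In humans, mutations of FRAS1, FREM2 or GRIP1 cause Fraser syndrome, and FREM1 has been linked to diaphragmatic hernia in humans and mice.

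The end of the coding sequence is shown for the family because Grip1 binds the carboxy-terminal ends of Fras1 and Frem2. The 45 coding bases before the stop codon are given 5′ to 3′ from GENCODE M21 transcripts (GRCm38), with the last 3 codons in capitals. All 4 stretches lie within a single coding exon.
Fras1: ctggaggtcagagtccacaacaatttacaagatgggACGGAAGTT
Frem2: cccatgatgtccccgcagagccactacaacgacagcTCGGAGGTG
Frem1: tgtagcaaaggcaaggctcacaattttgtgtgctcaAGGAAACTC
Frem3: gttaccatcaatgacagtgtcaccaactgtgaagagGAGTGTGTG
The Fras1 stretch is on the plus strand at chr5:96781724-96781768, that of Frem2 on the minus strand at chr3:53516535-53516579, that of Frem1 on the minus strand at chr4:82900402-82900446 and that of Frem3 on the plus strand at chr8:80695309-80695353. Fras1 and Frem2 had the same base at 6 of the last 9 positions and at 19 of all 45. For Fras1 and Frem1 these counts were 5 of 9 and 13 of 45, and for Frem2 and Frem1 they were 3 of 9 and 11 of 45. Against Frem3, the counts were 3 of 9 and 15 of 45 for Fras1, 4 of 9 and 13 of 45 for Frem2, and 2 of 9 and 10 of 45 for Frem1. The counts are of equal bases without gaps and do not measure likeness of the encoded amino acids. They were not set against counts for unrelated sequences. The longest coding sequences ran to 4010 codons in 74 exons for Fras1, 3160 codons in 24 exons for Frem2, 2191 codons in 36 exons for Frem1 and 2127 codons in 8 exons for Frem3.

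Integrin alpha8 beta1 recognises the tripeptide Arg-Gly-Asp, so the codons for it are shown in Npnt and in the other listed ligands. Each stretch holds 12 coding bases on either side of the Arg-Gly-Asp codons, which are in capitals, 5′ to 3′ from the same transcripts.
Npnt: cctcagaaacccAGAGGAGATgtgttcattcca
Egfl6: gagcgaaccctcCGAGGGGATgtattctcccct
Fn1 first site: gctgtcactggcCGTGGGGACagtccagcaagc
Fn1 second site: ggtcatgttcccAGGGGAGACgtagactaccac
Vtn: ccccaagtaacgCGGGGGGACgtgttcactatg
Spp1: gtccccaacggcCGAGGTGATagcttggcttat
The Npnt site begins at codon 430 of 609, and its stretch spans an intron on the minus strand (chr3:132891484-132904685). The Egfl6 site begins at codon 360 of 550 and also spans an intron on the minus strand (chrX:166536276-166538441). The Fn1 sites lie within single exons on the minus strand (chr1:71606734-71606766 and chr1:71597431-71597463). The Vtn stretch spans an intron on the plus strand (chr11:78499616-78499726), and the Spp1 stretch lies in 1 exon on the plus strand (chr5:104439469-104439501). No in-frame Arg-Gly-Asp codons were found in the longest coding transcript of mouse Tnc.

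The libraries held 26370253 counts in replicate 1 and 23255957 in replicate 2. Levels are in TPM, the count per base of the gene, brought to an equal sum in every library, and means are given ± SD with n = 2. Across the 13013 protein-coding genes with at least 1 TPM in both libraries the median level was 27.0 TPM and the coefficient of variation over the pair of libraries had a median of 5.09%. Markers of the PPF tissues were present: all 10 mesothelial, all 8 fibroblast and mesenchyme and all 6 skeletal muscle markers reached 1 TPM or more in each library. Of 6 lung and gut epithelial markers only Sox2 reached that level, and Nkx2-1 and Cdx2 had 0 counts in either library. In replicate 2, the shallower library, this allows up to 0.145 TPM of Nkx2-1 and 0.183 TPM of Cdx2. In bulk tissue, fewer expressing cells and less RNA per cell cannot be told apart.

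All 6 genes were expressed, with at least 1 TPM in both libraries, as were 63.8% of the 20412 protein-coding genes and 44.4% of all listed features. All 6 also had at least 10 TPM in both libraries, as did 46.6% of protein-coding genes. With only 6 genes, chosen with these levels known, the count is a description. The median of the 6 was 51.5 TPM.

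Of the 3 Fras-Frem genes, Fras1 (GRCm38 chromosome 5, 96373955 to 96784728) stood highest. It had 11194 counts and 83.2 TPM in replicate 1 (95% interval for counting error 81.7 to 84.8) and 11541 counts and 100.2 TPM in replicate 2 (98.4 to 102.0), a mean of 91.7 ± 11.97 TPM. Fras1 exceeded 84.8% of expressed protein-coding genes by mean TPM. The libraries did not overlap within their counting intervals, and replicate 1 was the lower.

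Frem2 (chromosome 3, 53513939 to 53657355), which encodes the other membrane-anchored partner of the complex, had 5655 counts and 54.0 TPM in replicate 1 (52.6 to 55.4) and 5952 counts and 66.3 TPM in replicate 2 (64.6 to 68.0). Its mean was 60.2 ± 8.72 TPM, above 74.7% of expressed protein-coding genes. Frem1 (chromosome 4, 82897920 to 83052167), the secreted family member, had 4392 counts and 37.0 TPM in replicate 1 (36.0 to 38.1) and 4940 counts and 48.6 TPM in replicate 2 (47.3 to 49.99), a mean of 42.8 ± 8.19 TPM. Replicate 1 was again below replicate 2 for both genes, without overlap of the counting intervals.

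The proportion of Fras1 to Frem2 was close in the libraries, while the intervals for Fras1 to Frem1 did not overlap between them. Per base of gene length, Fras1 stood at 1.54 times Frem2 in replicate 1 (95% interval 1.49 to 1.59) and at 1.51 times in replicate 2 (1.46 to 1.56). Fras1 stood at 2.25 times Frem1 in replicate 1 (2.17 to 2.33) and at 2.06 times in replicate 2 (1.99 to 2.13). The ratio to Frem1 depends on the length used for it. The deposited length of Frem1 was 13978 bases, while its longest annotated transcript has 9690 bases, and on transcript length Fras1 stood at 1.56 and 1.43 times Frem1 in replicates 1 and 2. On the same basis Frem2 stood at 1.01 and 0.946 times Frem1, against 1.46 and 1.36 times with the deposited length. Together the 3 genes held 0.0805% of the counts in replicate 1 and 0.0965% in replicate 2.

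Grip1 (chromosome 10, 119454034 to 120087260), the adaptor gene, was the lowest of the 6. It had 904 counts and 13.6 TPM in replicate 1 (12.7 to 14.5) and 824 counts and 14.4 TPM in replicate 2 (13.4 to 15.4), a mean of 13.99 ± 0.613 TPM. Its counting intervals overlapped between the libraries. Fras1 stood at 6.14 times Grip1 in replicate 1 (5.74 to 6.58) and at 6.95 times in replicate 2 (6.47 to 7.46) per base of length. On transcript length these ratios were 4.26 and 4.82.

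Npnt (chromosome 3, 132881745 to 132950291), the ligand gene, had 3432 counts and 80.5 TPM in replicate 1 (77.8 to 83.2) and 3249 counts and 88.9 TPM in replicate 2 (85.9 to 92.0). Its mean was 84.7 ± 5.97 TPM, above 83.2% of expressed protein-coding genes. Itga8 (chromosome 2, 12106632 to 12301920), the gene of its receptor chain, had 2546 counts and 41.3 TPM in replicate 1 (39.7 to 42.9) and 2263 counts and 42.8 TPM in replicate 2 (41.1 to 44.6), a mean of 42.0 ± 1.09 TPM. The intervals of Itga8 overlapped, and those of Npnt did not.

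Per base of length, Npnt stood at 1.95 times Itga8 in replicate 1 (1.85 to 2.05) and at 2.08 times in replicate 2 (1.97 to 2.19). Itga8 shares 5.05% of its annotated exon bases with E030013I19Rik on the opposite strand, and no source used here gives the strand setting of the counting. Fras1 shares 0.898% of its exon bases with an annotated neighbour, and the exons of Frem1, Frem2, Grip1 and Npnt overlap no other annotated gene.

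**Figure D1:**
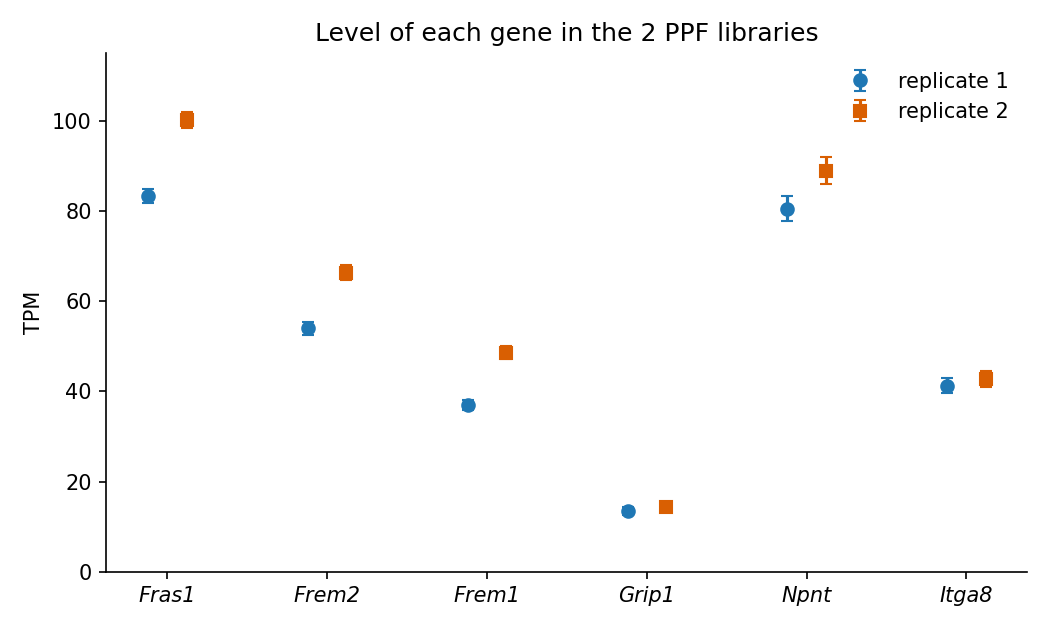
TPM of each gene (vertical axis) in replicate 1 (circles) and replicate 2 (squares), with 95% Poisson intervals for counting error. Fras1 and Npnt sit highest, at 83.2 to 100.2 and 80.5 to 88.9 TPM, and Grip1 lowest, at 13.6 and 14.4 TPM.

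By mean level the order was Fras1, Npnt, Frem2, Frem1, Itga8 and Grip1. Of the 5 neighbouring pairs in that order, 3 were separated, in that the lower value of the upper gene exceeded the higher value of the lower gene: Npnt from Frem2, Frem2 from Frem1 and Itga8 from Grip1. Fras1 and Npnt did not differ beyond their spread over the libraries, nor did Frem1 and Itga8. With transcript lengths in place of the deposited lengths the order became Npnt, Fras1, Frem1, Frem2, Itga8 and Grip1. Both pairs that changed places reversed between the libraries, so Frem2 and Frem1 were then not separated. Fras1 stood at 0.951 and 1.04 times Npnt in replicates 1 and 2, and Frem2 at 1.01 and 0.946 times Frem1.

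**Figure D2:**
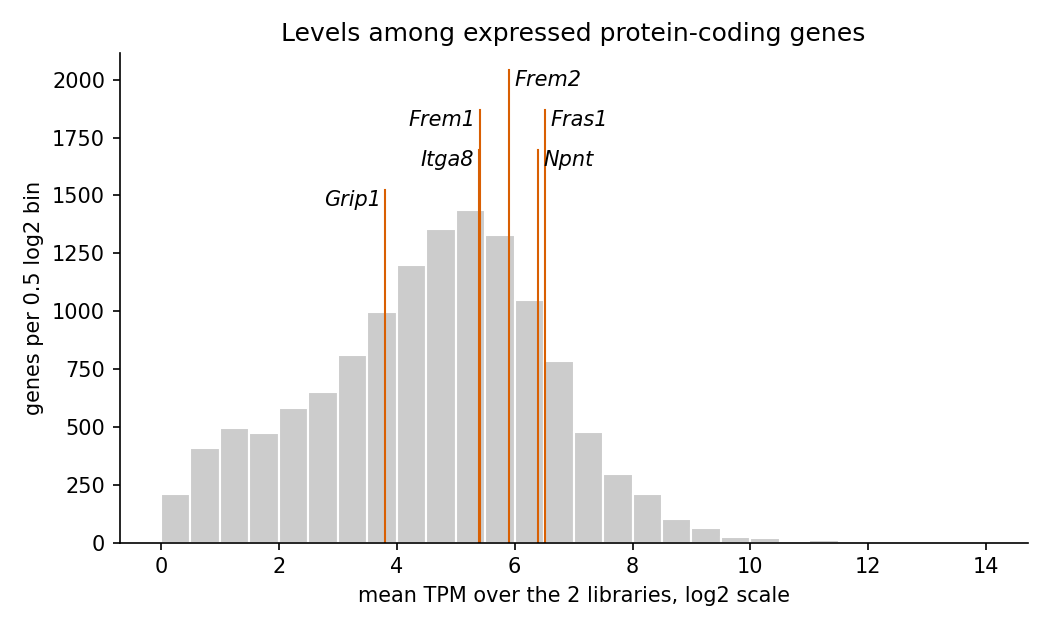
Number of expressed protein-coding genes (vertical axis) by mean TPM over the 2 libraries on a log2 scale (horizontal axis, bins of 0.5), with a vertical line at the mean of each of the 6 genes. Grip1, at 13.99 TPM, is the only one below the median of 27.0 TPM.

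The relatives and partners of the complex were mostly low. Of 7 such genes 5 had at least 1 TPM in both libraries, and the median of the 7 was 6.63 TPM. Frem3, the remaining family member, had 93 counts and 1.72 TPM in replicate 1 and 145 counts and 3.12 TPM in replicate 2, below each of Fras1, Frem1 and Frem2 in both libraries. Grip2, the paralog of Grip1, stood at 6.63 ± 1.199 TPM. Vwa2, whose product AMACO binds the complex, had 1.37 TPM in replicate 1 and 0.883 in replicate 2.

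The hemicentin genes Hmcn1 and Hmcn2, which encode giant matrix proteins, stood at 11.7 ± 2.87 and 0.686 ± 0.337 TPM. Cspg4, the proteoglycan gene after which the repeats are named, stood at 13.0 ± 1.304 TPM. Furin, a protease gene whose product cleaves many secreted precursors, was the highest of this list at 36.8 ± 2.04 TPM.

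All 5 other ligand genes of integrin alpha8 beta1 were expressed in both libraries. Fn1, the fibronectin gene, had 877 TPM in replicate 1 and 1007 in replicate 2, and Tnc, the tenascin C gene, had 135.5 and 173.7 TPM in replicates 1 and 2. Egfl6, whose product is related to nephronectin, had 120.1 TPM in replicate 1 and 109.2 in replicate 2, above Npnt in each. Spp1, the osteopontin gene, stood at 5.14 ± 1.13 TPM and Vtn, the vitronectin gene, at 3.04 ± 1.84 TPM. Spp1 shares 18.8% of its exon bases with an overlapping gene on its own strand.

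Itgb1, the only beta chain with which alpha8 is known to pair, had 520.5 TPM in replicate 1 and 547.6 in replicate 2, above Itga8 in both. All 8 listed genes of RGD-binding integrin subunits other than Itga8, Itgb1 among them, were expressed, with a median of 21.9 TPM. Itga5, an alpha chain for fibronectin, stood at 154.4 ± 1.04 TPM and Itgav at 35.2 ± 2.90 TPM, so that Itga8 lay between them on deposited lengths. Itgav has a deposited length of 10744 bases and a longest transcript of 7054, against 7273 and 5812 for Itga8. Their order on transcript length was not examined. Itgb5 stood at 133.1 ± 2.43 TPM, while Itgb8, Itgb6, Itgb3 and Itga2b ranged between 3.84 and 8.65 TPM by mean.

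Of 25 basement membrane genes 22 were expressed in both libraries, with a median of 56.8 TPM. The highest were Sparc (1447 ± 30.1 TPM), the nidogen genes Nid2 (275.2 ± 16.9 TPM) and Nid1 (257.5 ± 20.2 TPM), and Col4a1 (272.6 ± 21.9 TPM), a type IV collagen gene. The lowest were Lamb3, an epithelial laminin chain, at 0.394 ± 0.0224 TPM and Col4a3 at 0.260 ± 0.100 TPM. Col7a1, whose product forms the anchoring fibrils below skin epithelium, had 2.54 TPM in replicate 1 and 2.36 in replicate 2.

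The kidney induction genes known to act with Itga8 and Npnt ranged widely. Gdnf, the growth factor gene whose expression in the kidney depends on this integrin, had 23 and 20 counts in replicates 1 and 2, or 0.773 and 0.784 TPM. Its receptor gene Ret had 0.449 TPM in replicate 1 and 1.82 in replicate 2, and the coreceptor gene Gfra1 had 37.0 and 42.5 TPM. The transcription regulator gene Eya1 stood at 13.8 ± 4.22 TPM and Sall1 at 0.320 ± 0.103 TPM. Thus 2 of these 5 genes, Gfra1 and Eya1, had at least 1 TPM in both libraries.

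**Figure D3:**
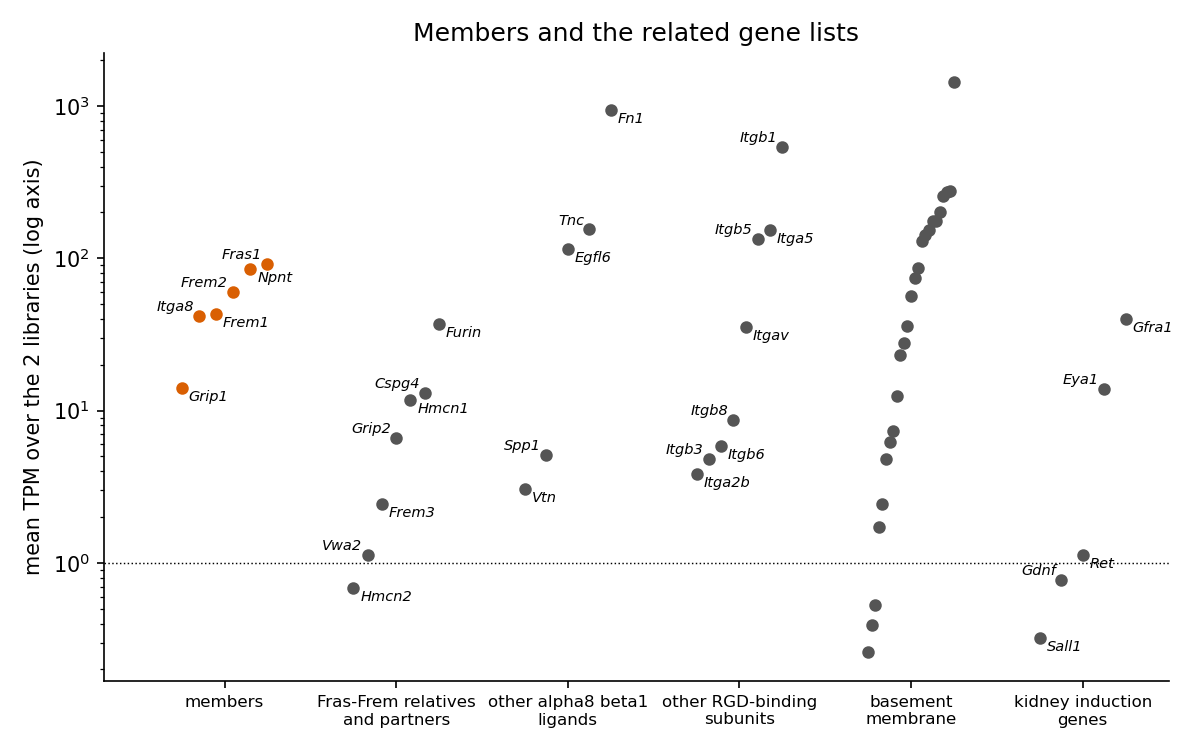
Mean TPM over the 2 libraries (log axis) of the 6 members and of the genes in each related list, 1 point a gene, with the 1 TPM threshold dotted. The members span 13.99 to 91.7 TPM, within the range of the basement membrane genes (0.260 to 1447 TPM).

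Among all genes of the related lists, those closest to each member in level were found by Euclidean distance in log2(TPM + 1) over the 2 libraries. Lamb2, a laminin chain gene at 85.9 ± 0.794 TPM, was closest to both Npnt (distance 0.118) and Fras1 (0.235), followed for each by Lama4. Gfra1 was closest to both Itga8 (0.153) and Frem1 (0.191), followed by Furin. Col4a5 (56.8 ± 2.95 TPM) was closest to Frem2, at 0.170, and Cspg4 and Col4a6 to Grip1, at 0.165 and 0.241. With 2 libraries of a single group, this is a likeness of level, and it holds for the deposited lengths only. Lama4, for example, has a deposited length of 12068 bases, while its longest annotated transcript has 6046.

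The libraries were then compared to see how far 2 dissections of the folds differed. Fras1, Frem2 and Frem1 were lower in replicate 1, Npnt was lower by a smaller margin, and Grip1 and Itga8 did not pass the test. The log2 ratio of replicate 1 to replicate 2, after TMM scaling of the libraries, was -0.35 for Frem1 (95% interval -0.41 to -0.30, exact binomial adjusted p = 5.63e-30), or 0.782-fold. It was -0.26 for Frem2 (-0.31 to -0.20, exact binomial adjusted p = 7.29e-20), or 0.836-fold, and -0.23 for Fras1 (-0.27 to -0.19, exact binomial adjusted p = 1.99e-30), or 0.854-fold. The p-values treat counting error as the only noise and compare these 2 libraries, not conditions or animals.

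For Npnt the log2 ratio was -0.10 (95% interval -0.17 to -0.04, exact binomial adjusted p = 0.0209). The median ratio of its length class, the decile of tested genes of 4523 to 5667 bases, was then subtracted. The ratio became -0.09 and its adjusted p crossed the threshold (exact binomial adjusted p = 0.0563), though the estimate itself hardly moved. Grip1 had a log2 ratio of -0.05 (-0.19 to 0.09, exact binomial adjusted p = 0.723) and Itga8 of -0.01 (-0.10 to 0.07, exact binomial adjusted p = 0.908).

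In all, 4 of the 6 genes were called lower in replicate 1 and 0 higher, against 8.85% of the 19433 tested genes called lower, 8.65% called higher and 17.5% called in either direction. Deeply counted genes are called more often: of 8685 genes whose counts summed to 1000 or more, all 6 members among them, 30% were called in either direction and 14.7% lower. Long genes were lower in replicate 1 as a whole. The longest length decile of tested genes, which holds Fras1, Frem2, Frem1 and Grip1, had a median log2 ratio of -0.09, and 42.1% of its 1468 genes with at least 1000 counts were called lower and 3.88% higher. Within those 1468 genes, 3.54% had a lower ratio than Frem1, 11.3% than Frem2 and 15.9% than Fras1.

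Once the median of the length class was subtracted, the log2 ratios were -0.26 for Frem1, -0.17 for Frem2 and -0.14 for Fras1 (exact binomial adjusted p = 1.88e-16, 2.04e-08 and 4.57e-11). So corrected, 3 of the 6 were called lower and 0 higher, against 7.12% and 6.64% of tested genes. The length class of Fras1, Frem2 and Frem1 spans 7539 to 116824 bases, and any trend with length inside it was not subtracted. None of the 6 differed by 1.5-fold, as 2.35% of tested genes did with an adjusted p under 0.05. Before the length subtraction the median log2 ratio over the 6 was -0.17. It was 0.01 over all tested genes and -0.09 over the longest length decile. After the subtraction the median over the 6 was -0.12.

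**Figure D4:**
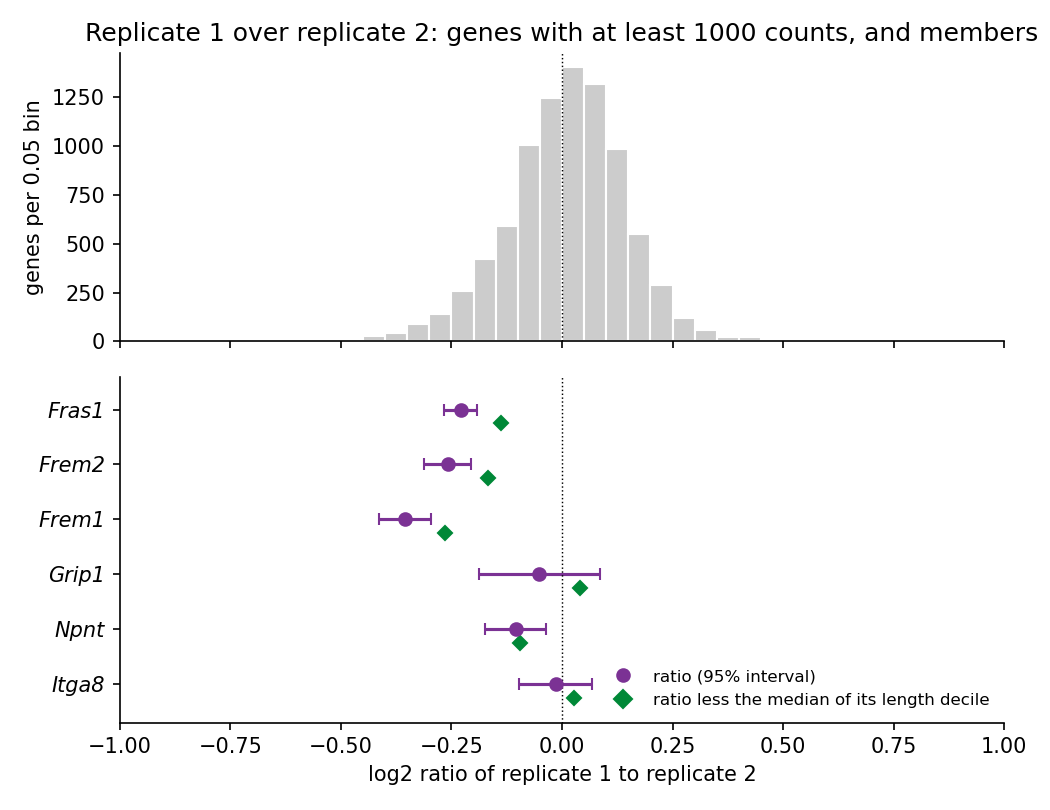
Top, number of genes with at least 1000 counts (vertical axis) by log2 ratio of replicate 1 to replicate 2 (horizontal axis, bins of 0.05, shown from -1 to 1). Bottom, the ratio of each of the 6 genes with its 95% interval (circles) and after subtraction of the median of its length class (diamonds): Frem1, Frem2 and Fras1 lie left of 0 either way, at -0.35, -0.26 and -0.23 before and -0.26, -0.17 and -0.14 after.

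Several related genes were also called lower in replicate 1, and their counts are to be read against the 8.85% of all tested genes called lower and the shift of long genes given above. Of the 7 relatives and partners 4 were called lower and 0 higher (median log2 ratio -0.33): Frem3, Grip2, Hmcn1 and Hmcn2. With the length-class median subtracted 3 of them stayed called, against 7.12% of tested genes called lower, and Grip2 did not. Hmcn1 had 9.70 TPM in replicate 1 and 13.8 in replicate 2, a log2 ratio of -0.47 (exact binomial adjusted p = 2.04e-20). Frem3 had a log2 ratio of -0.82 (-1.22 to -0.44, exact binomial adjusted p = 2.52e-04). Of the other ligand genes Fn1, Tnc and Vtn were called lower and Egfl6 higher, with a log2 ratio of 0.18 (0.09 to 0.26, exact binomial adjusted p = 3.40e-04), so that Npnt and its relative Egfl6 lay on opposite sides of 0. Itgb1 had a log2 ratio of -0.03 (exact binomial adjusted p = 0.116), and 3 of the 8 integrin subunit genes were called lower and 0 higher (median -0.08): Itgav, Itgb3 and Itgb8. With the length-class median subtracted 2 of the 8 were called lower and 0 higher (median -0.04), and these were Itgb1 and Itgb8. Of the 25 basement membrane genes 9 were called lower and 0 higher (median -0.09), with none at 2-fold. That median is near the -0.09 of the longest length decile. With the length-class median subtracted 6 of the 25 were called lower and 0 higher (median -0.04), against 7.12% of tested genes called lower. The 6 are not all from the 9. Sparc, at a log2 ratio of -0.004 before the subtraction (exact binomial adjusted p = 0.893), was called only after it. Of the kidney induction genes 3 of 5 were called lower and 0 higher (median -0.59), Ret by a log2 ratio of -1.96 (exact binomial adjusted p = 1.84e-10).

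Markers of neighbouring tissues also differed between the libraries. Of 9 tested markers of nephric duct, mesonephros and gonad, 5 were called higher in replicate 1, each by at least 2-fold, and 0 lower, where 0.551% of tested genes were called higher and 0.71% lower by that margin. The 5 were Pax8, Lhx1, Cdh16 and, among genes of the gonad and urogenital ridge, Emx2 and Amhr2. Counts were low for Pax8, with 69 and 3 in replicates 1 and 2, and for Lhx1, with 23 and 2. The duct genes Gata3 and Wnt9b had log2 ratios of 0.08 and 0.05 (exact binomial adjusted p = 0.913 and 1), and Pax2, with 13 and 2 counts in replicates 1 and 2, was not called (exact binomial adjusted p = 0.0517). Of the 10 markers of that list 4 had at least 1 TPM in both libraries. The 10 summed to 70.1 TPM in replicate 1 and 45.7 in replicate 2. Six2, the highest of them, held 33.2 and 29.2 TPM of these sums. It was not called (log2 ratio 0.23, exact binomial adjusted p = 0.0607). Cdh16, a cadherin gene of nephric epithelium, had 20 counts in replicate 1 and 0 in replicate 2. With replicate 2 set to a floor of 3 counts, Cdh16 stood 5.87-fold higher in replicate 1. That value leaves out counting error on the 20 counts and is not a lower bound. The counting interval of the log2 ratio of Cdh16 reached down to 2.12 in log2 units, which is below the log2 of 5.87. All 6 hepatoblast markers were called lower in replicate 1 by at least 2-fold, with sums of 108.7 TPM in replicate 1 and 285.5 in replicate 2.

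Surface ectoderm is an epithelium in which the complex is known to act. Of its 8 markers 0 were called in either direction by the exact binomial test, with a median log2 ratio of -0.23. They summed to 40.6 TPM in replicate 1 and 45.3 in replicate 2, of which Dsp held 24.4 and 26.9. Only 5 of the 8 had at least 1 TPM in both libraries. Krt5 had 8 and 9 counts in replicates 1 and 2 and Krt15 had 10 and 9, too few for a small difference to be called. Mesothelial markers had 1 called higher and 2 lower of 10, with a median log2 ratio of -0.004, and summed to 653 TPM in replicate 1 and 682 in replicate 2. The sums are in TPM and the ratios follow TMM scaling, so a small difference in sums need not show in the ratios. Of 6 Schwann precursor and neuron markers 5 were called lower in replicate 1, 2 of them (Elavl3 and Tubb3) by at least 2-fold, and 0 higher. That list summed to 217.9 TPM in replicate 1 and 259.7 in replicate 2, with a median log2 ratio of -0.30. Of the 5 endothelial markers 1 was called higher and 2 lower, with sums of 171.3 TPM in replicate 1 and 198.3 in replicate 2. The part of these tissues in the ratios of the 6 genes was not tested.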

How the data were processed

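Polyadenylated RNA was sequenced from 2 libraries with a stranded kit, per the labels. STAR 2.4.0a, SAMtools 1.3, featureCounts and the build mm9 are named in the submitters' processing notes. The deposited positions overlapped those of the same symbol in GENCODE M21 (GRCm38) for 99.8% of 35656 shared symbols and were identical for 56.3%, so they are given as GRCm38. The strand setting was not given. The deposited raw counts were not normalised by the authors. The deposited TPM equals count divided by the deposited gene length, scaled to a fixed sum.

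The members and lists were chosen with earlier results of these data known. Genes named are the 6 members, all genes of 4 short related lists, the 4 highest and 2 lowest of 25 basement membrane genes, the nearest genes to each member (up to 2), and selected markers. A gene of the kidney list is not reported here and was left out of its counts and medians. Col7a1, the 1000-count class and the comparison within the longest length decile were chosen after values were seen. Counting intervals are exact Poisson for levels and Clopper-Pearson for ratios, at 95%, and cover counting error only, since reads carry no molecular identifiers and are not independent molecules.

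Between libraries, counts were tested with a two-sided exact binomial test against TMM-scaled library sizes (edgeR 4.0.16), with Benjamini-Hochberg adjustment over 19433 genes with at least 10 counts. A gene was called at an adjusted p under 0.05. Ratios used counts plus 0.5. There is no second group, so edgeR's quasi-likelihood test had no contrast. No source says whether the pooled folds came from separate litters, so the difference between the libraries may be technical, and the p-values set it against counting error alone. The test was checked on data simulated with counting error only, which cannot show how it behaves under other variation between libraries. Alternatives were DESeq2 1.42.0 size factors, total counts, a length correction by deciles of gene length, other count filters and other TPM scalings.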

Additional observations from a re-analysis of the deposited data

How the results depend on the processing

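All 6 genes stayed expressed at thresholds of 5 and 10 TPM and in each library alone. Over protein-coding genes alone the mean levels were 113.4 TPM for Fras1, 52.9 for Frem1, 74.3 for Frem2, 17.3 for Grip1, 104.7 for Npnt and 52.0 for Itga8. Without features under 200 bp, Grip1 stood at 15.6, Npnt at 94.5 and Itga8 at 46.9 TPM. With transcript lengths, Frem1 stood at 55.9, Grip1 at 18.2 and Itga8 at 47.6 TPM. Subtracting the length-class median moved the log2 ratio of Npnt to -0.094 (exact binomial adjusted p = 0.0563), no longer called, and turned those of Grip1 (0.04) and Itga8 (0.027), neither called in either setting. With a minimum of 1.5-fold, 0 of the 6 were called lower. Fras1, Frem1 and Frem2 were called lower in replicate 1 under total counts, DESeq2 size factors, the length correction and both other count filters. Ratios between the libraries have no value when a library is left out. No paired analysis was possible because the series has a single group.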
